A study of Homo sapiens with 9 samples.

Results

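The stretch of 12p13 that holds DUSP16, CDKN1B and GPRC5A was examined for occupancy by the transcription factors NKX2-1 and FOXA1 in lung adenocarcinoma cells. It was taken as 12 to 13.05 Mb of chromosome 12 in the human genome build hg18, a window of 1.05 Mb across the border of bands 12p13.2 and 12p13.1 at 12.6 Mb. Every peak of the 5 deposited lists that overlapped it was kept, which gave 158 of 125879 peaks on placed chromosomes. The 110 NKX2-1 peaks among them merged into 68 regions, of 59685 over the genome. The stretch was chosen by peak counts of these same lists, with its H1819 density already known, so its number of peaks is given as a description and was not tested.

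The homeodomain factor NKX2-1 (TTF-1) acts in lung and thyroid, and its gene is amplified in some lung adenocarcinomas. FOXA1 is a forkhead factor that opens chromatin in endodermal tissues and is often found beside NKX2-1 in lung cells. GPRC5A encodes an orphan G protein-coupled receptor that is induced by retinoic acid and abundant in lung epithelium, and mice without it develop lung tumours. CDKN1B encodes p27, an inhibitor of cyclin-dependent kinases that holds cells in G1. DUSP16 encodes MKP-7, a phosphatase that removes activating phosphates from MAP kinases, JNK above all.

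NKX2-1 was precipitated from NCI-H3122, NCI-H1819 and NCI-H2087, 3 established human lung adenocarcinoma lines with amplified NKX2-1 per the series' design text, using an antibody from Bethyl Laboratories. FOXA1 was precipitated from NCI-H3122 with an antibody from Abcam. H3122 had 2 NKX2-1 lists, replicates 1 and 2, and each other combination had 1. Nothing in the labels says that the pair came from separate cultures. No treatment is labelled. Genome-wide list lengths were 7469 for H3122 replicate 1, 48061 for replicate 2, 13483 for H1819, 14437 for H2087 and 42429 for FOXA1. How deeply each library was sequenced is not known. Each peak carried the authors' score, used here only within its own list and given with its percentile there, the share of that list's peaks that scored no higher.

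Gene positions were known to the nearest kb only: DUSP16 from about 12.520 to 12.607 Mb, CDKN1B from about 12.762 Mb and GPRC5A from about 12.935 Mb upward. DUSP16 is read towards lower coordinates, so its start is its upper end. By gene order in RefSeq, CREBL2 and GPR19 lie between DUSP16 and CDKN1B, and APOLD1 and DDX47 between CDKN1B and GPRC5A. BCL2L14, LRP6, MANSC1 and BORCS5 precede DUSP16, and GPRC5D and HEBP1 follow GPRC5A. A peak near one of the 3 genes may therefore belong to another gene, and no expression was measured.

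The promoters of DUSP16 and CDKN1B are shown because peaks of H1819 NKX2-1 and FOXA1 lay beside the start of DUSP16, and no list had a peak at that of CDKN1B. They were matched by symbol for 2 of the 3 genes, come from RefSeq on GRCh38.p14, and run from 250 bases before the start to 50 after it. Their coordinates are not on the hg18 scale of the peaks. The H1819 and FOXA1 peaks lay 0.6 and 0.3 kb from a DUSP16 start known to the nearest kb. Whether they cover the printed bases is therefore not known. DUSP16 is on the minus strand at chr12:12562814-12563113 and CDKN1B on the plus strand at chr12:12717118-12717417. Capitals mark motif matches on either strand.
DUSP16: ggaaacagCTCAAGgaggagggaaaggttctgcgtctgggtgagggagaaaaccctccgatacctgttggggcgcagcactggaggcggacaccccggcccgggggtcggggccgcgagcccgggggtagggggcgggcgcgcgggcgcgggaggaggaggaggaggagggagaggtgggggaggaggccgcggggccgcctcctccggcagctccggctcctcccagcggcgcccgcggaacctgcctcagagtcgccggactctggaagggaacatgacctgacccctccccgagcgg
CDKN1B: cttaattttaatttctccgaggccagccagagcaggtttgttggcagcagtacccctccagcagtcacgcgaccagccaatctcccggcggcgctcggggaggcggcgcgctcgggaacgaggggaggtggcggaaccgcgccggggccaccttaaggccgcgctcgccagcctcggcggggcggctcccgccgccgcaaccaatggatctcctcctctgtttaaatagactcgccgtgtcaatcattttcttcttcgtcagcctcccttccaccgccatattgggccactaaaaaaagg

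The NKX2-1 motifs searched were CTCAAG and CACTTG, both of which hold the factor's CAAG core on one strand, and the FOXA motifs were TGTTTAC and TATTTAC. The DUSP16 promoter held 1 match, CTCAAG from base 9, and the CDKN1B promoter held none of the 4. Of 35116 promoters of this length, 21.7% held either NKX2-1 motif and 5.97% either FOXA motif, so a match in 1 of 2 is a description. Both promoters were rich in CG dinucleotides, with 29 each against a median of 14 over all promoters. Their GC content was 73.3% in DUSP16 and 62.3% in CDKN1B, against a median of 58.7%.

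Of the window's NKX2-1 peaks, 8 came from H3122 replicate 1, 47 from replicate 2, 31 from H1819 and 24 from H2087, and FOXA1 had 48. Relative to the mean density of each list, these were 3.14, 2.87, 6.75, 4.88 and 3.32 times as many in the same order. At scores of at least 100, replicate 1 stood at 9.81 times its mean and H1819 at 8.83. With each list held to its best 7469 peaks, replicate 2 stood at 4.71 and FOXA1 at 6.28 times the mean, and H1819 at 9.43. The 6.75 of H1819, over all its peaks, had an exact Poisson 95% interval of 4.58 to 9.57 and the 2.87 of replicate 2 one of 2.11 to 3.82, which cover counting error only. Of 3091 windows of 1 Mb over the genome, none held more H1819 peaks than the 31 between 12 and 13 Mb. In the other lists, 131, 44, 55 and 22 of the windows were at least as dense, counting this one, for replicate 1, replicate 2, H2087 and FOXA1. Scores in the window had medians of 115, 175, 187, 149 and 162 in the 5 lists, against 73.3, 137, 124, 150 and 139 over the whole lists. No run of peaks with gaps of up to 10 kb crossed an edge of the window. The last peaks below the window lay 1.82 to 1744 kb outside it with scores of 66.8 to 288, and the first inside lay 3.08 to 53.3 kb within it with scores of 127 to 2706. At the upper edge, the last peaks inside lay 4.90 to 113 kb from it with scores of 73.3 to 1322, and the next outside 20.8 to 191 kb beyond it with scores of 72.8 to 283.

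**Figure D1:**
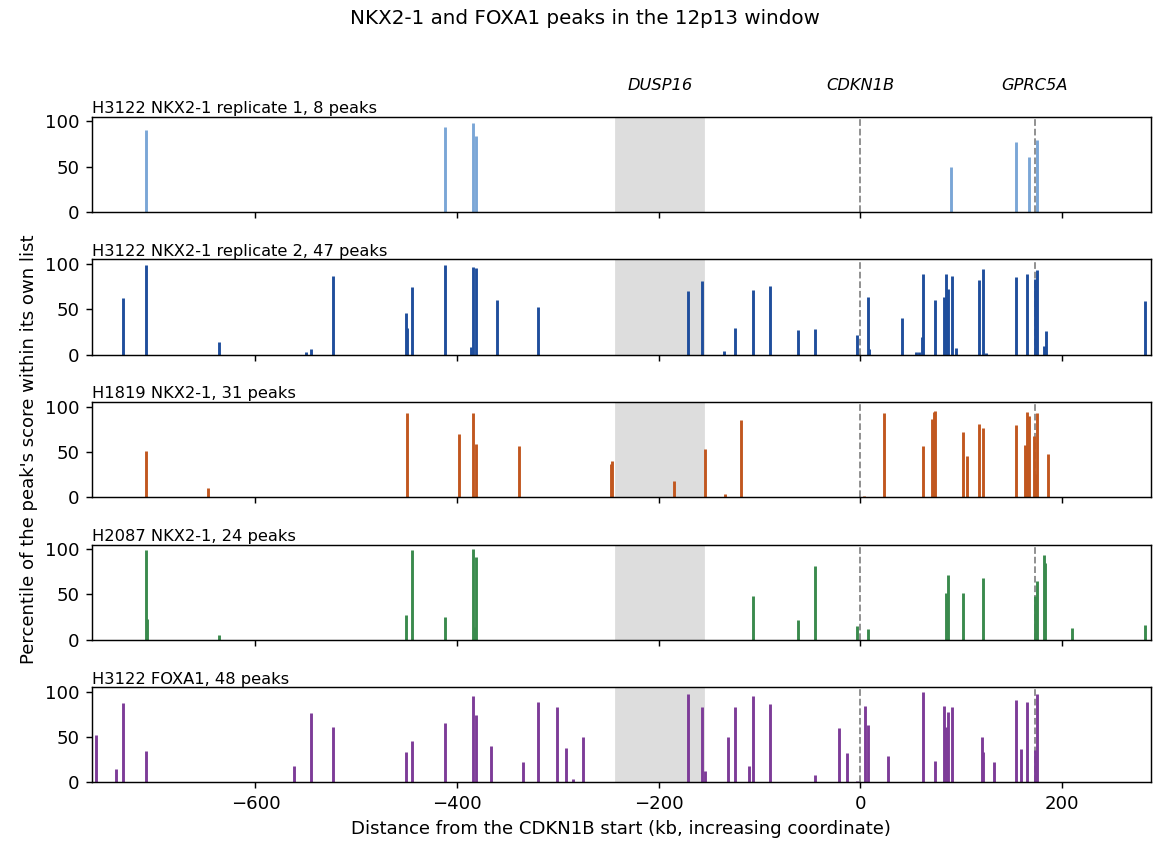
Each line is a peak of 1 list, placed by its distance in kb from the CDKN1B start, with its height giving the percentile of its score within that list; grey marks the DUSP16 body and dashed lines the CDKN1B and GPRC5A starts. High peaks gather well before DUSP16 and between CDKN1B and GPRC5A, and the peaks beside the CDKN1B start are low in the NKX2-1 lists.

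GPRC5A was the only one of the 3 genes with peaks near its start in all 5 lists. A merged region from 12934372 to 12936005 covered the approximate start, where H3122 replicate 2 scored 373, H1819 187, H2087 142 and FOXA1 103. H3122 replicate 1 had no peak in it. Its H2087 peak, from 12935368 to 12935848, began 0.4 kb above the position used for the start. That distance is under the 1 kb to which the position is rounded. This H2087 peak overlapped replicate 2 and another H1819 peak, of 81.0 at percentile 25.2. It overlapped neither the H1819 peak of 187 nor the FOXA1 peak. A region from 12936830 to 12937654, centred 2.24 kb above the start, had NKX2-1 peaks in all 4 lists. H3122 scored 108 in replicate 1 and 662 in replicate 2, H1819 scored 549 and H2087 scored 221, at percentiles 79.5, 92.9, 92.5 and 64.4. FOXA1 had its peak of 1322 there, at percentile 96.9, one of the 3 highest FOXA1 scores of the window. Both regions thus held NKX2-1 peaks of every line and a FOXA1 peak of H3122. In the region at the start these peaks did not all overlap each other.

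In the 25 kb below the GPRC5A start, H1819 had the most peaks. Its longest run in the window, peaks joined across gaps of up to 10 kb, held 7 peaks over 21.1 kb from 12916463 to 12937569, with scores of 81.0 to 605. Of the 10524 H1819 runs over the genome, 17 held 7 peaks or more, this one included, or 0.162%. The window was chosen with its H1819 density known, so this share supports nothing further. The longest window runs of the other lists held 2 peaks in replicate 1, 6 in replicate 2, 4 in H2087 and 5 for FOXA1. Runs with at least as many peaks made up 9.26%, 1.32%, 3.05% and 1.73% of the runs of those lists. Of the peaks in the H1819 run, the one from 12927465 to 12928185 scored highest at 605. It was matched by replicate 2 at 506 and FOXA1 at 576. The H1819 peak from 12929317 to 12930101 scored 435 and was matched in replicate 1 at 80.0 and in no other list, and the one from 12925633 to 12926223 scored 145 and was in H1819 alone. A region from 12916166 to 12917447 had H3122 scores of 103 in replicate 1 and 426 in replicate 2, an H1819 score of 279 and a FOXA1 score of 708. H2087 had no peak in any of these 4 regions, although it had peaks at the start itself.

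Further above the start, beyond the region at 2.24 kb, H2087 had the highest percentiles. H2087 had adjacent peaks from 12943453 to 12944852 and from 12945121 to 12945962, with scores of 868 and 483, percentiles 93.2 and 84.7. The peaks of replicate 2 in the same places scored 67.8 and 87.5, percentiles 9.13 and 26.0. H1819, replicate 1 and FOXA1 had none there, and H1819 had a peak of 118 of its own from 12947985 to 12948452. These H2087 peaks ended its longest run in the window, 4 peaks over 10.6 kb from 12935368. Within 25 kb of the GPRC5A start the lists had 3, 6, 8, 4 and 5 peaks, in the order H3122 replicate 1, replicate 2, H1819, H2087 and FOXA1. The mean density of each list would give 0.121, 0.780, 0.219, 0.234 and 0.689 in such a length.

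**Figure D2:**
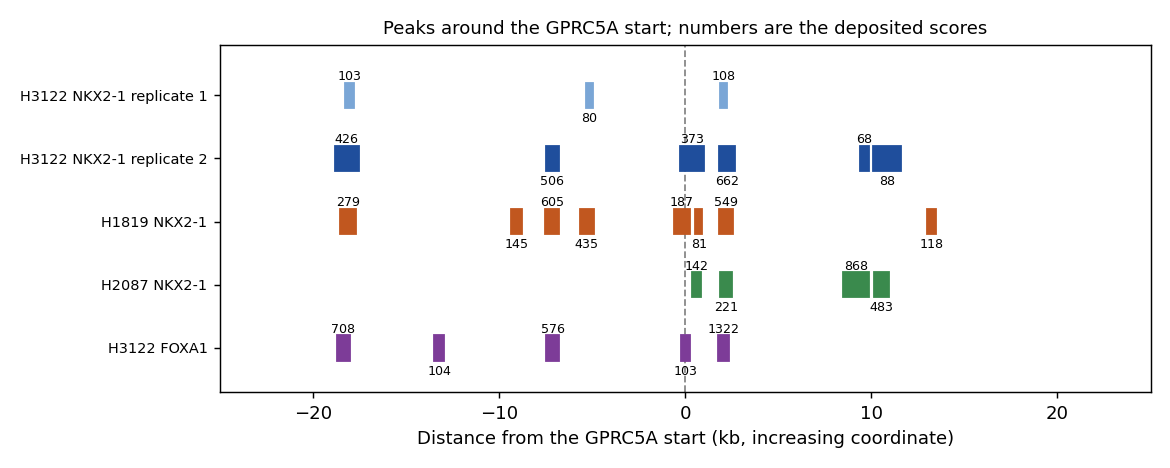
Boxes are peaks drawn to scale by distance in kb from the GPRC5A start, 1 row for each list, with the deposited score beside each box; scores compare only within a row. All 5 lists have a peak about 2.24 kb above the start, H1819 has the most peaks in the 25 kb below it, and the 868 and 483 of H2087 lie further above.

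CDKN1B had no peak at its start in any list, and the peaks nearest to it scored low in their lists, apart from replicate 1, whose nearest was far away. The closest NKX2-1 peaks were 3.2 kb below it in H3122 replicate 2, with a score of 82.1, and 3.4 kb below it in H2087, with 72.3. These 2 peaks overlapped each other, as 12758117 to 12758794 and 12758292 to 12758648. In H1819 the closest was 3.3 kb above it, from 12765327 to 12765667, with 61.1. Their percentiles were 22.0, 15.4 and 1.71. The nearest FOXA1 peak, 2.7 kb below, scored 61.2. Replicate 1 had no peak within 90.1 kb of the start. At scores of at least 100 the nearest NKX2-1 peaks were 7.1 kb away in replicate 2, 23.6 kb in H1819, 44.0 kb in H2087 and 154.7 kb in replicate 1.

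FOXA1 had a stronger peak above the CDKN1B start. This peak, from 12766437 to 12767277, scored 453, and no NKX2-1 list had a peak in it. The longest FOXA1 run of the window spanned the CDKN1B start, with 5 peaks over 29.4 kb from 12740607 to 12770028 and scores of 61.2 to 453. The next of these, from 12769302 to 12770028 at 197, was shared with replicate 2 at 189 and H2087 at 68.5. Within 25 kb of the CDKN1B start there were 0, 3, 2 and 2 NKX2-1 peaks in replicates 1 and 2, H1819 and H2087, and 5 FOXA1 peaks. The mean density of each list would give 0.121, 0.780, 0.219, 0.234 and 0.689, so each list but replicate 1 was above its mean here too.

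The lists differed at the start of DUSP16 and over its body of about 87 kb. The nearest H1819 peak, from 12607583 to 12608244, lay 0.6 kb from the start and scored 131. It overlapped a FOXA1 peak of 69.8 from 12607335 to 12608014 and no other NKX2-1 list. H3122 replicate 2 had its nearest peak 1.5 kb inside the gene, from 12604766 to 12605537, with a score of 341, on a FOXA1 peak of 414. H2087 had none within 48.7 kb and replicate 1 none within 226.4 kb. The body held 2 peaks in replicate 2, 1 in H1819 at 72.8, 2 of FOXA1 and none in replicate 1 or H2087. Per 100 kb this was 2.30 in replicate 2 against a list mean of 1.56, 1.15 in H1819 against 0.438, and 2.30 for FOXA1 against 1.38. Another of the 3 highest FOXA1 scores of the window was in the body, 1390 from 12590582 to 12591133, centred 16.1 kb from the start. NKX2-1 replicate 2 scored 231 there, and H1819 and H2087 had no peak.

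Across the window, peaks were most crowded between the CDKN1B and GPRC5A starts, a segment of 173 kb that also holds APOLD1 and DDX47. It held 3, 18, 15 and 5 NKX2-1 peaks in replicate 1, replicate 2, H1819 and H2087, and 15 FOXA1 peaks. Per 100 kb these were 1.73, 10.4, 8.67, 2.89 and 8.67 peaks, against list means of 0.242, 1.56, 0.438, 0.469 and 1.38. H2087 was denser from GPRC5A on, with 6 peaks or 5.22 per 100 kb, than between the genes. From the CDKN1B start upward, 27.4% of the window's length, lay 58.1% of the H1819 peaks (95% Wilson interval 40.8 to 73.6) and 48.9% of those of replicate 2 (35.3 to 62.8). It was 45.8% in H2087 (27.9 to 64.9), 50.0% in replicate 1 (21.5 to 78.5) and 35.4% for FOXA1 (23.4 to 49.6).

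**Figure D3:**
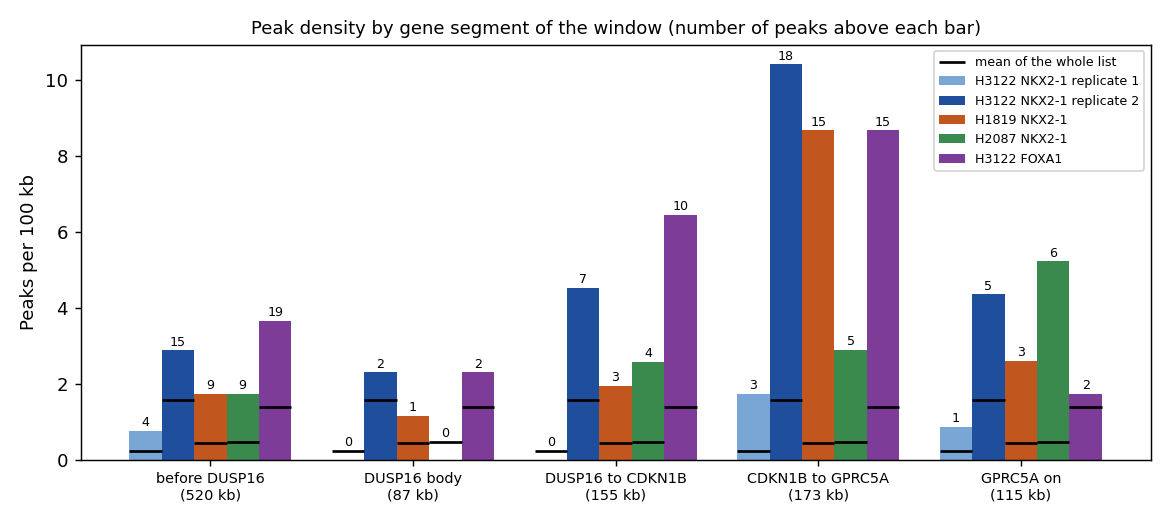
Bars give peaks per 100 kb in 5 segments of the window, coloured by list, with the number of peaks above each bar and a black line at the mean of the whole list. The segment from CDKN1B to GPRC5A has the tallest bars for H3122 replicates 1 and 2, H1819 and FOXA1, up to 10.4 per 100 kb, and H2087 is tallest from GPRC5A on at 5.22.

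The highest scores in this crowded segment came at different places in different lists. H1819 had its best 2 peaks of the window side by side, 704 from 12836130 to 12836791 and 607 from 12834787 to 12835689. The first was matched by replicate 2 at 174 and FOXA1 at 81.7, and the second was in no other list. A neighbouring peak, from 12833169 to 12833901, scored 364 in H1819 alone. The highest FOXA1 peak of the window, 3100 from 12823458 to 12824264, overlapped replicate 2 peaks of 78.4 and 510 and an H1819 peak of 142, and neither H2087 nor replicate 1 had a peak there. Replicate 2 had its longest run here, 6 peaks over 21.5 kb from 12836063 to 12857589 with scores of 66.0 to 498. In that run H2087 had peaks of 155 and 275, and H1819 only its 704. The segment's best replicate 2 peak scored 740 and lay in a region from 12883929 to 12884565 that was also in H1819 at 243, in H2087 at 248 and in FOXA1 at 97.6.

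Between DUSP16 and CDKN1B, where CREBL2 and GPR19 lie, H1819 and H2087 had few peaks to compare. None of the 3 H1819 peaks overlapped another NKX2-1 list, and the lowest of them scored 61.9, percentile 3.02. Each of the 4 H2087 peaks overlapped replicate 2. Over the whole lists 53.4% of H1819 and 67.7% of H2087 peaks did. Counts of 3 and 4 are too few to set the lines apart. The strongest H1819 peak was 351, from 12643821 to 12644573. H2087 had its best at 408, from 12717182 to 12717970, where replicate 2 scored 91.3 and FOXA1 66.2. FOXA1 had 10 peaks in the segment, 6 of them with NKX2-1, and its best of 1077 from 12655611 to 12656513 lay on peaks of 240 in replicate 2 and 144 in H2087.

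Of the regions in all 4 NKX2-1 lists, 3 lay before DUSP16, far from the 3 gene starts. A region from 12377316 to 12378581 had H3122 scores of 278 in replicate 1 and 980 in replicate 2, while H1819 scored 594, H2087 3141 and FOXA1 1058. These were at percentile 93.4 or higher in each list, and it was the best window peak of replicate 1 and H2087. Its neighbour from 12380190 to 12380920 scored 122, 884, 149, 756 and 284 in the same order. A region from 12052711 to 12054051 scored 152 and 1962 in H3122 and 2706 in H2087, but 127 in H1819 and 99.6 for FOXA1, both near the middle of their lists or lower. With the region 2.24 kb above the GPRC5A start, these were the 4 regions of the window found in all 4 NKX2-1 lists. Peaks of 1466 in replicate 2 and 176 in replicate 1, from 12349641 to 12350530, were matched in H2087 at 86.1 and not in H1819. H2087 scored 2037 from 12316868 to 12318093, where replicate 2 scored 262 and H1819 had no peak. Conversely, H1819 scored 570 from 12312087 to 12312719, where replicate 2 scored 92.4 and H2087 had none.

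**Figure D4:**
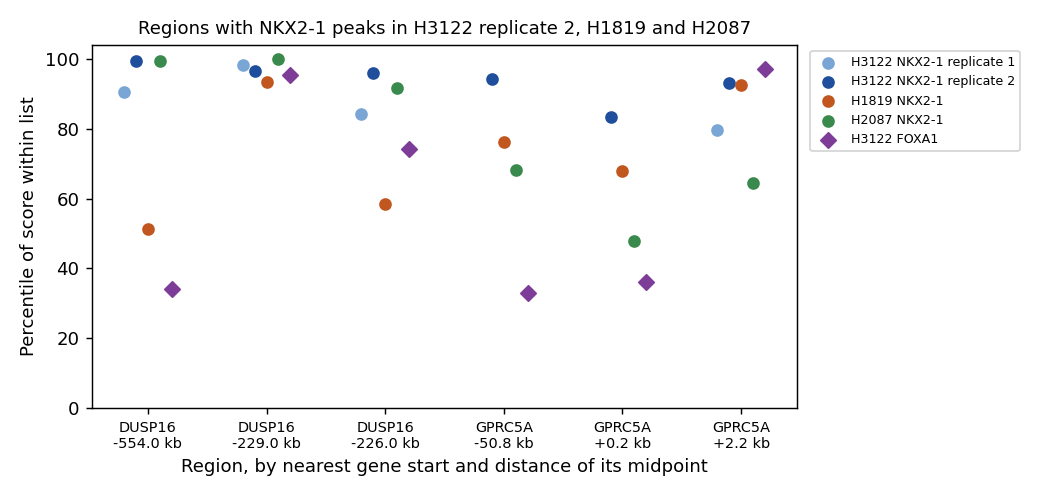
For the 6 window regions with NKX2-1 peaks in H3122 replicate 2, H1819 and H2087, points give the percentile of the score within each list, and diamonds give FOXA1; the horizontal axis names the nearest gene start and the distance in kb. Replicate 2 lies at percentile 83.3 or higher in each region, while H1819, H2087 and FOXA1 range down to 51.2, 47.8 and 33.1.

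Sharing between lines was compared in the window and over the whole lists, with no test, since peaks are not replicates and the window was chosen on peak counts. Of the H3122 replicate 1 peaks, 7 of 8 overlapped replicate 2, or 87.5% (95% Wilson interval 52.9 to 97.8), against 81.7% of the list. The exception was the peak of 80.0 below GPRC5A that H1819 shared. Of the H2087 peaks, 20 of 24 overlapped replicate 2, or 83.3% (64.1 to 93.3), against 67.7%. With each list held to its best 7469 peaks, the window value was 46.2% (23.2 to 70.9). The whole-list share was not computed at that setting, and the 67.7% is not its counterpart. Of the H1819 peaks only 13 of 31 did, or 41.9% (26.4 to 59.2), against 53.4%, a value inside the interval. H1819 and H2087 met at 7 peaks each, which were 22.6% (11.4 to 39.8) of H1819 peaks against 22.8% of the list, and 29.2% (14.9 to 49.2) of H2087 peaks against 21.0%. From the side of H3122, sharing with the other lines was above the whole-list value. Replicate 2 peaks overlapped H1819 in 12 of 47 cases, or 25.5% (15.3 to 39.5), against 14.7%, and H2087 in 20 of 47, or 42.6% (29.5 to 56.7), against 20%. Replicate 1 peaks overlapped H1819 in 6 of 8 cases, or 75.0% (40.9 to 92.9), against 25.4%, and H2087 in 5 of 8, or 62.5% (30.6 to 86.3), against 29.9%. These 4 whole-list values lay below the intervals of the window. A list with more peaks in the window offers more to overlap, and the part of this in the shares was not tested. Overlap with replicate 1, which has few peaks, was 14.9% (7.41 to 27.7) of replicate 2 peaks against 12.5%, 19.4% (9.19 to 36.3) of H1819 peaks against 13.9% and 20.8% (9.24 to 40.5) of H2087 peaks against 15.1%, each inside its interval.

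Merged regions were in several lines more often than over the genome. Of the 68 regions, 28 were in 2 or more lines, with H3122 counted by either replicate, or 41.2% (30.3 to 53.0), against 23.3% of all regions. In all 4 NKX2-1 lists were 4 regions, or 5.88% (2.31 to 14.2), against 1.61%. H1819 alone accounted for 16 regions, H2087 alone for 3 and replicate 2 alone for 20. H1819 alone made up 23.5% of the window's regions (15.0 to 34.9) against 10.0% of all regions, and H2087 alone 4.41% (1.51 to 12.2) against 7.27%. Replicate 2 alone made up 29.4% (19.9 to 41.1) against 52.3%, a lower share than over the genome. The density of H1819 peaks was known when the window was chosen, so its share of the regions supports nothing further. The same limit holds for the shares in several lines. Each list was denser in the window than its own mean, which offers more to overlap, and the part of this was not tested.

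FOXA1 lay on many of the NKX2-1 peaks of the window, where its own peaks were 3.32 times as dense as their list mean. Denser lists offer more to overlap, and the part of this in the shares below was not tested. FOXA1 was found at 30 of 47 replicate 2 peaks, or 63.8% (49.5 to 76.0), against 47.8% of the list. It was found at 7 of 8 replicate 1 peaks, or 87.5% (52.9 to 97.8), against 50.3%. Of the H2087 peaks 13 of 24 lay on an H3122 FOXA1 peak, or 54.2% (35.1 to 72.1), against 31.6%. Of the H1819 peaks 12 of 31 did, or 38.7% (23.7 to 56.2), against 28.7%, which lies inside the interval. Over the merged regions the share was 45.6% (34.3 to 57.3), against 39.7% of all regions, also inside it. From the side of FOXA1, 28 of 48 peaks overlapped replicate 2, or 58.3% (44.3 to 71.2), against 54.5%. FOXA1 peaks overlapped H1819 in 12 of 48 cases, with an interval of 14.9 to 38.8%, against 9.07%, and H2087 in 13, or 27.1% (16.6 to 41.0), against 10.8%, both list values below the interval. They overlapped replicate 1 in 7, or 14.6% (7.25 to 27.2), against 8.72%, inside it.

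**Figure D5:**
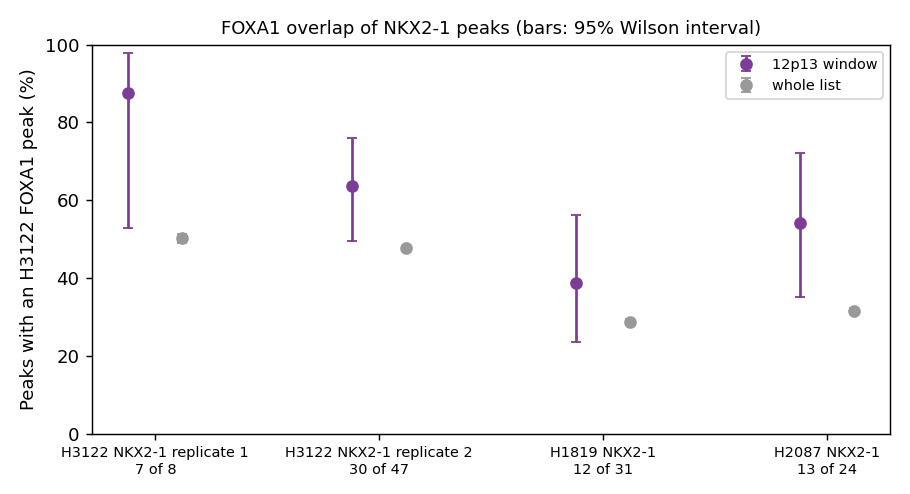
Points give the percentage of NKX2-1 peaks of each list that overlap an H3122 FOXA1 peak, in the 12p13 window and to its right in the whole list, with 95% Wilson intervals that cover counting error only. The window lies above the whole list in all 4 lists, and only for H1819 does the window's interval hold the value of the whole list. FOXA1 peaks are also denser in the window than over their list, and the part of this was not tested.

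FOXA1, measured in H3122 only, was found mostly at regions with an H3122 NKX2-1 peak. It was not precipitated from H1819 or H2087, so its presence in those lines is not known. Regions with an H3122 peak had FOXA1 in 30 of 48 cases, or 62.5% (48.4 to 74.8), against 46.8% over the genome. Regions without one had it in 1 of 20 cases, with an interval of 0.888 to 23.6%, against 7.02%. That 1 was the H1819 region beside the DUSP16 start. FOXA1 was in 20 of the 28 regions found in 2 or more lines, or 71.4% (52.9 to 84.7), and in 11 of the 40 found in 1 line, or 27.5% (16.1 to 42.8). Over all regions these shares were 46.7% and 37.6%. Of the 28 regions in 2 or more lines, 1 lacked an H3122 peak and was shared by H1819 and H2087. Over the genome it was 257 of 13932. Among regions of 1 line, FOXA1 was in 1 of 16 for H1819 alone, or 6.25%, against 6.08% of such regions over the genome. For H2087 alone it was in 0 of 3, against 8.31%. For replicate 2 alone it was in 9 of 20, or 45.0%, against 46.6%. The shares for H1819 alone and replicate 2 alone were thus close to those over the genome. All sharing other than that of H1819 with H2087 includes H3122 by definition. Sharing between lines and an H3122 peak thus went together, in the window as over the genome. The part of each in the contrast was not tested. All 4 regions of the 4 NKX2-1 lists had FOXA1, against 55.7% of 962 such regions over the genome, and a count of 4 out of 4 has an interval of 51.0 to 100%.

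Within each list, NKX2-1 peaks on FOXA1 had the higher scores, in the window as over the genome. The medians with and without FOXA1 were 271 and 67.4 in replicate 2, 261 and 142 in H1819, and 248 and 80.8 in H2087. Over the whole lists they were 197 and 108, 160 and 115, and 222 and 128 in the same order. FOXA1 peaks of the window with NKX2-1 had a median score of 330 and those without one of 107. Where replicate 2 and FOXA1 peaks overlapped, their midpoints lay a median of 85.0 bp apart in the window and 74.2 bp over the genome. Peak score and FOXA1 overlap moved together, and the part of score in the shares above was not tested.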

How the data were processed

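Peak lists of 5 precipitated libraries were analysed, and 4 input libraries were not analysed here. The submitters' processing notes name Bowtie, MACS 1.4.0 and the build hg18. Each list belongs to 1 library. Peaks on unplaced sequence were left out. The deposited score is the peak caller's own value per peak; for its scale, the calling threshold, the control input and the depth, nothing is stated in the labels or headers. Scores pile up at 3100 in every list but that of replicate 1, a value that 2 window peaks reached. Wilson and Poisson 95% intervals cover counting error only.

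The genes and the window were chosen with earlier results of these data known. Named are the 3 genes, regions in all 4 NKX2-1 lists, the 3 highest window peaks of each list, the peak nearest each gene start and the longest run of each list; other peaks near them were named after their values were seen. Peaks overlapping by at least 1 bp were shared or merged. H3122 counted for a region in all lines where both replicates had a peak. Segments held a peak by its midpoint. Alternatives changed the score minimum, list length, overlap rule, merging, joining, window and H3122 replicate. List means used hg18 lengths from circlize 0.4.16 (R 4.3.3). Computations used Python 3.11.15, numpy 2.4.6, scipy 1.17.1, pandas 2.3.3 and matplotlib 3.10.9, and the overlap code was tested on simulated data. hg18 sequence and gene models were not used here.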

Additional observations from a re-analysis of the deposited data

How the results depend on the processing

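No paired analysis was possible because no result comes from a test. Of 110 alternatives over 36 values, all planned, 88 stayed within the interval of the value, within 1.5 times a count, or within 1.5 times or 1 kb of a distance, and 22 did not. With the 7469 best peaks of each list, density in the window was 4.71 times the mean in H3122 replicate 2 and 6.28 times for FOXA1, 46.2% of H2087 peaks overlapped replicate 2, and the longest runs of replicate 2 and FOXA1 held 2 peaks each. At scores of at least 100, replicate 1 had 9.81 times its mean density and 100% of its peaks in replicate 2. From DUSP16 upward replicate 2 stood at 3.87 times its mean. Joining over 20 kb gave replicate 2 a run of 11 peaks. The cause of these moves was not tested. Of 30 distances to a gene start, 13 moved, 9 of them at CDKN1B. In replicate 2, H1819, H2087 and FOXA1, the weak peaks within 3.4 kb of its start were no longer in the cut lists. In replicate 1 the peak no longer there lay 90.1 kb away. Among the best 7469 peaks of each list, the one nearest the GPRC5A start lay within 1.9 kb of it in all 5 lists. The 4 regions in all lines became 6 without H3122 NKX2-1 replicate 1 and stayed 4 without replicate 2. Lists differ in length and threshold, and replicate 1, with 8 window peaks, allows little beyond presence.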

Other observations

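FOXA1 also occupied the window without NKX2-1, and 19 of its 48 peaks (39.6%) overlapped no NKX2-1 peak of any line. This was much as over the genome. An NKX2-1 peak was overlapped by 60.4% of the FOXA1 peaks in the window and by 56.5% of all 42429. Of these 19, 10 lay before DUSP16, where BORCS5, MANSC1 and LRP6 come next in gene order. The strongest was the peak of 453 next to CDKN1B, and the next was 419, from 12461137 to 12461854. A group of 4 FOXA1 peaks in the 50 kb above 12.45 Mb had no NKX2-1 peak in any list. The peaks named here were chosen after their values were seen.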
